A study of Mus musculus with 3 samples.

Results

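The Hox clusters were examined for ATRX binding in mouse primary neurons, in 2 lists of ChIP-seq peaks. ChIP-seq sequences the DNA fragments that an antibody pulls down, and a peak is a stretch where they pile up above background. The members are the 39 protein-coding genes named Hoxa, Hoxb, Hoxc or Hoxd with a number, of 21887 protein-coding genes on the chromosomes of the GRCm38.p6 gene table. A peak belonged to them when it touched a gene span or the 5 kb on either side, and each peak was counted once. Of 217827 peaks in all, 59 met this rule, 24 in the MICAL1-FL list and 35 in the control list.

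C57BL6/J embryos between E15.5 and E17.5 gave the neurons, which were infected with lentivirus on day 5 of culture. At day 14 in vitro ATRX was precipitated from enzymatically cut chromatin of neurons labelled MICAL1-FL and of control neurons labelled mcherry. Each condition had 1 ChIP library and 1 peak list, so no difference between them has a replicate check or a p-value here. Intervals are at 95% and cover counting error only. The labels do not give the brain region, the sex or number of embryos, whether animals were pooled, or how much MICAL1 the virus produced. Peak positions carry no expression values, so the labelled cell type could not be checked against its markers. Peak names in the list titled MICAL1-FL carry the prefix TBC_M2 instead, so every MICAL1-FL value rests on the sample title.

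Hox genes encode homeodomain transcription factors that give cells their position along the head-to-tail axis, in the hindbrain and spinal cord among other tissues. Mammals carry them in 4 clusters, and genes with the same number in different clusters are paralogues. Within a cluster the low-numbered genes are used first and nearest the head, and the high-numbered genes later and nearer the tail. Where a Hox gene is off, Polycomb proteins cover it with trimethylated histone H3 lysine 27, and Trithorax proteins oppose them. ATRX is a chromatin remodeller that places the histone variant H3.3 together with DAXX, and it is known to bind G-rich repeats that can fold into quadruplexes. MICAL1 is an oxidoreductase that acts on actin filaments.

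Both lists were made of shallow peaks. The MICAL1-FL list held 105674 peaks and the control list 112153, with a median depth of 5 ChIP fragments in each, a depth recovered from the fold and p-value of each peak. A q-value below 0.05 was reached by 402 MICAL1-FL peaks and 466 control peaks, and by none of the 59 Hox peaks. The values below therefore describe weak calls. Read totals of the libraries were not at hand. Coordinates are those of the deposited lists. The lists name no genome build, and GRCm38 was settled from their scaffold names and from peaks that gather at gene ends of its table.

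Peaks met few windows at Hox gene starts, and few at gene starts in general. RefSeq start windows, from 250 bases before to 50 bases after a start, were at hand for 22 of the 39 genes and made up 24 windows. The MICAL1-FL list overlapped 1 of these windows (4.17%), that of Hoxa6. The control list overlapped 3 (12.5%), that of Hoxb1 and both of Hoxd11. Over 21263 windows of all protein-coding genes in the same table, 10.6% were overlapped in the MICAL1-FL list and 10.3% in the control list. With counts of 1 and 3, the Hox shares are not shown to differ from these. The 4 windows are shown because they are the places where a peak met a Hox start window. They lie at chr6:52208623-52208922 on the minus strand, chr11:96365508-96365807 on the plus strand, and chr2:74679308-74679607 and chr2:74682073-74682372 on the plus strand, in RefSeq GRCm38.p6. Sequences run 5′ to 3′ along the gene, and capitals mark the bases that lie under a peak. The labels below name the window. In the Hoxa6 and Hoxb1 windows all covered bases lie before the start, so the start itself is not under the peak.
Hoxa6 start, under a MICAL1-FL peak: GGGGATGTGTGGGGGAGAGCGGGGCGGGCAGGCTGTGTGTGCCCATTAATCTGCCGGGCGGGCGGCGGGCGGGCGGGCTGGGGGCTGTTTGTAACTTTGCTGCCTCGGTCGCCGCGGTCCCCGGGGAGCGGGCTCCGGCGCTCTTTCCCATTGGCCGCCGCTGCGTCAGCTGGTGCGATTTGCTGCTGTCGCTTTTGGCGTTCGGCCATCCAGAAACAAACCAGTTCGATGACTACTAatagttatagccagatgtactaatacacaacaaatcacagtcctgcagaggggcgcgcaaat
Hoxb1 start, under a control peak: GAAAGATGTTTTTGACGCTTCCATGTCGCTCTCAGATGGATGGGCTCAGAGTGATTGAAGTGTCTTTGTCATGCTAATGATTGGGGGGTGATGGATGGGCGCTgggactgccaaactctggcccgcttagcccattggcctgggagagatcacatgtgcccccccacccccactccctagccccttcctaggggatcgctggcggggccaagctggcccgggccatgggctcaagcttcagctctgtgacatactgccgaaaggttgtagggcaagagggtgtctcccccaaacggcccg
Hoxd11 start further from Hoxd10, under a control peak: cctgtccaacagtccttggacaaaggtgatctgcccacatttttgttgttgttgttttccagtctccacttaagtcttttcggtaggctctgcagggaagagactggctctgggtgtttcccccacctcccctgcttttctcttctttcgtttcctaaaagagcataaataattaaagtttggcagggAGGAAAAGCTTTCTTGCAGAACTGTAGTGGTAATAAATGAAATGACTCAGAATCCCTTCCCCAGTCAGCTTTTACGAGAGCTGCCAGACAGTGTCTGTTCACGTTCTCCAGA
Hoxd11 start nearer to Hoxd10, under a control peak: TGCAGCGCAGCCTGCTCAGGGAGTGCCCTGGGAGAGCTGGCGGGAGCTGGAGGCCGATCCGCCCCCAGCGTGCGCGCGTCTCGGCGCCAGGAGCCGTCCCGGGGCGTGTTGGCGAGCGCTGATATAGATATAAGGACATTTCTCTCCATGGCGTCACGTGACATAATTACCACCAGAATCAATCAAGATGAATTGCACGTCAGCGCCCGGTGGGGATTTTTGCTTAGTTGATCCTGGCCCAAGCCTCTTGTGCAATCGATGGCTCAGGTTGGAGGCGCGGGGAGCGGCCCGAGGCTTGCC

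The peak on Hoxa6 covered 238 bases of its window, that on Hoxb1 covered 103, and those on Hoxd11 covered 112 and all 300. The Hoxa6 window had a GC content of 62.0% and 26 CG pairs, and the second Hoxd11 window had 62.0% and 25. The first Hoxd11 window had 45.7% and 4 CG pairs. Over the 24 Hox windows the GC content ranged from 39.7% to 81.0% with a median of 57.7%, beside a median of 56.3% over all windows. A stretch of 4 GGG runs with 1 to 7 bases of any kind between them, on either strand, was found in 7 of the 24 Hox windows (29.2%), those of Hoxa6 and Hoxb1 among them, and in 21.9% of all windows. The letters TATAAA, on either strand, stood in 4 Hox windows (16.7%) and in 12.6% of all. None of the 4 windows under a peak held TATAAA. These matches describe the letters only.

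**Figure D1:**
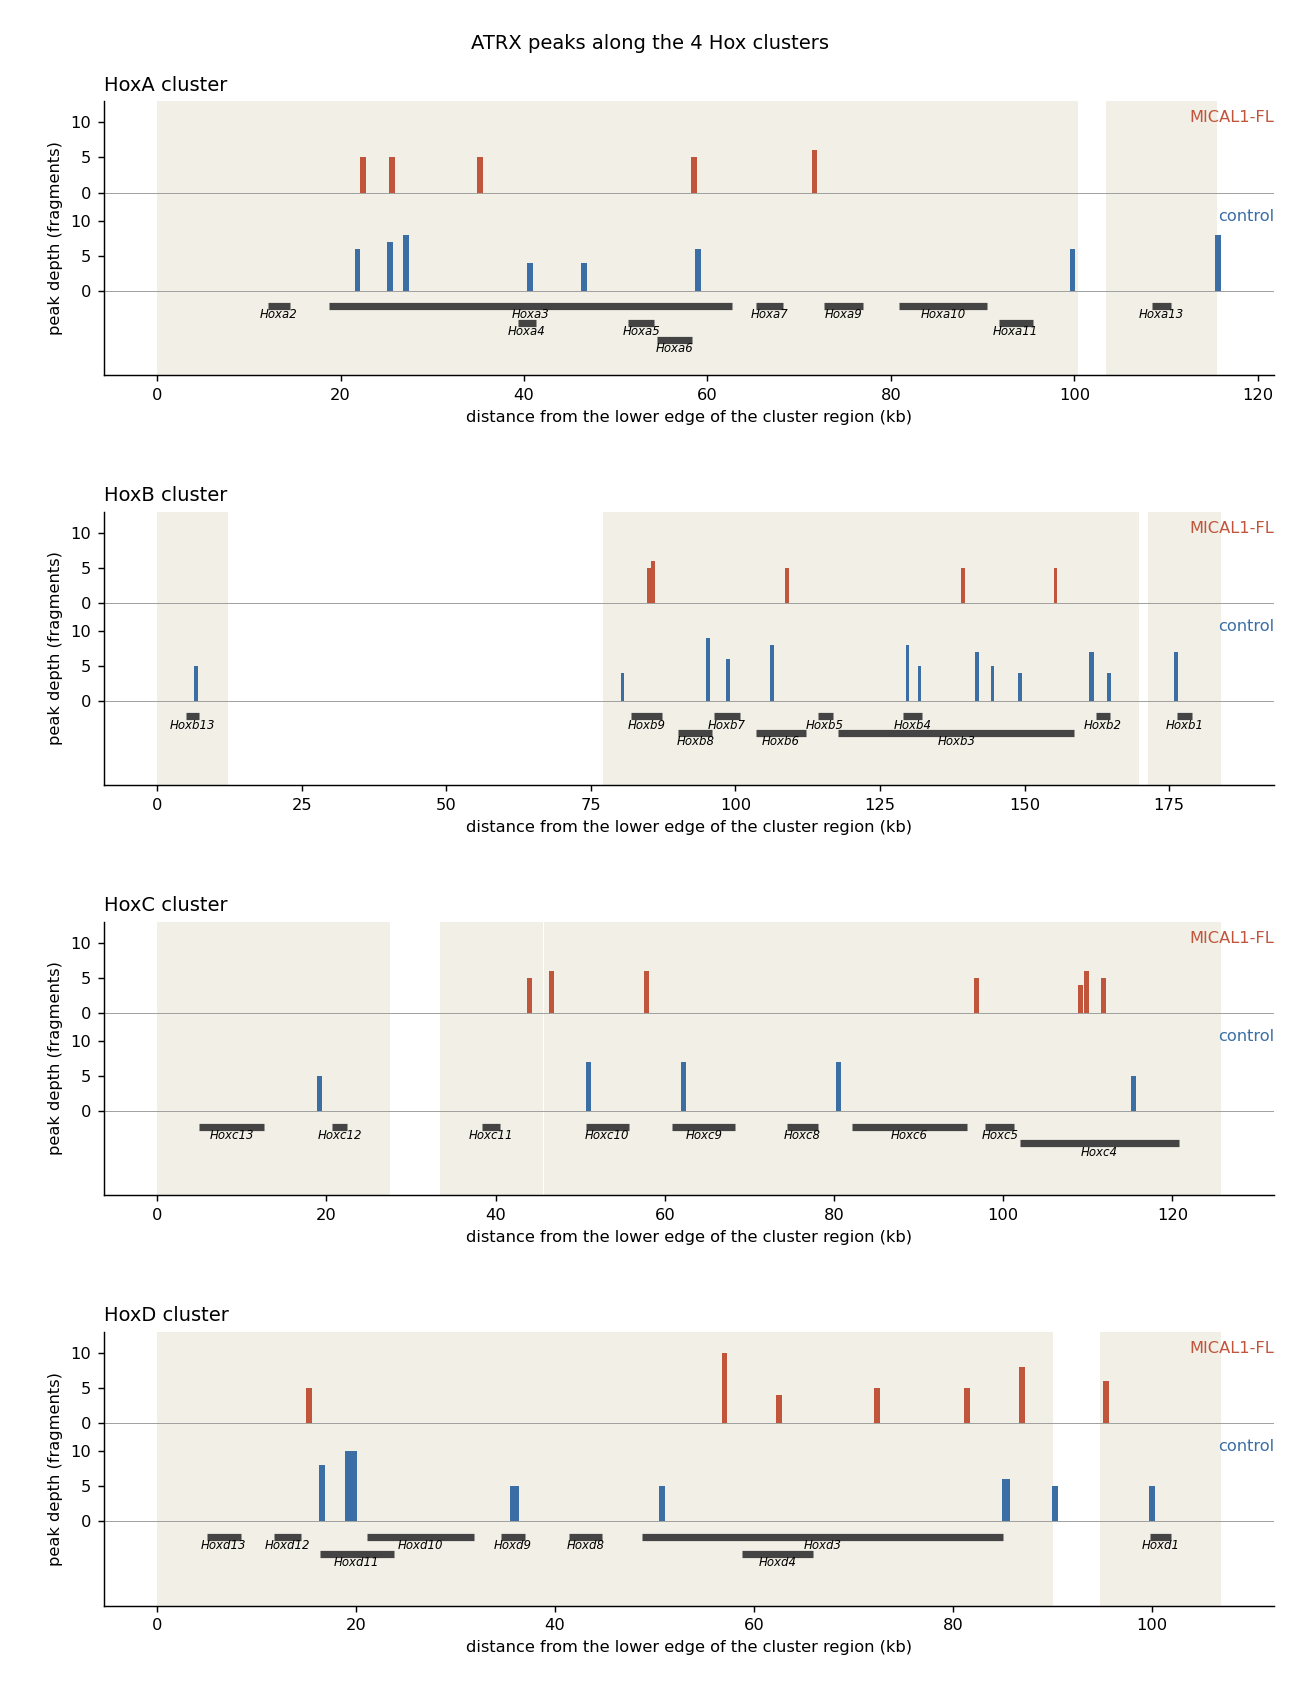
ATRX peaks along each Hox cluster. The horizontal axis gives the distance in kb from the lower edge of the cluster region, shaded bands are gene spans with 5 kb on either side, dark bars are genes, and the height of a coloured bar is the depth of a peak in ChIP fragments, for MICAL1-FL above and control below. Bars narrower than 0.6 kb are drawn at that width. The MICAL1-FL and control peaks drawn mostly stand at different places, and only the Hoxa3 pair overlaps.

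Hox regions held fewer peaks in the MICAL1-FL list than in the control list, by a margin within counting error. The 24 and 35 peaks give a ratio of 0.686 (0.390 to 1.19). The ratio of MICAL1-FL to control was 0.947 over all autosomal peaks and 0.929 (0.917 to 0.940) over autosomal protein-coding genes with 5 kb on either side. In the 500 kb on each side of the clusters the lists had 145 MICAL1-FL peaks and 152 control peaks, a ratio of 0.954 (0.755 to 1.21). The Hox ratio divided by that of the flanks was 0.719 (0.389 to 1.31), an interval that includes 1.

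Against their own flanks, Hox regions were denser in peaks in the control list. Over the 451.9 kb of Hox regions the MICAL1-FL list had 53.1 peaks per Mb (34.0 to 79.0), beside 36.2 in the flanks, a density ratio of 1.47 (0.909 to 2.27). The control list had 77.5 peaks per Mb (53.9 to 107.7), beside 38.0 in the flanks, a density ratio of 2.04 (1.37 to 2.96). All autosomal protein-coding genes with 5 kb on either side had 44.4 peaks per Mb in the MICAL1-FL list and 47.8 in the control list. The MICAL1-FL interval includes 1 and the control interval does not, but the interval of their ratio, given above, includes 1, so the lists are not shown to differ in this. Counting only flank bases within 5 kb of a protein-coding gene, the MICAL1-FL density ratio was 1.85 (1.09 to 3.05), an interval above 1, and the control ratio was 2.75 (1.74 to 4.31).

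**Figure D2:**
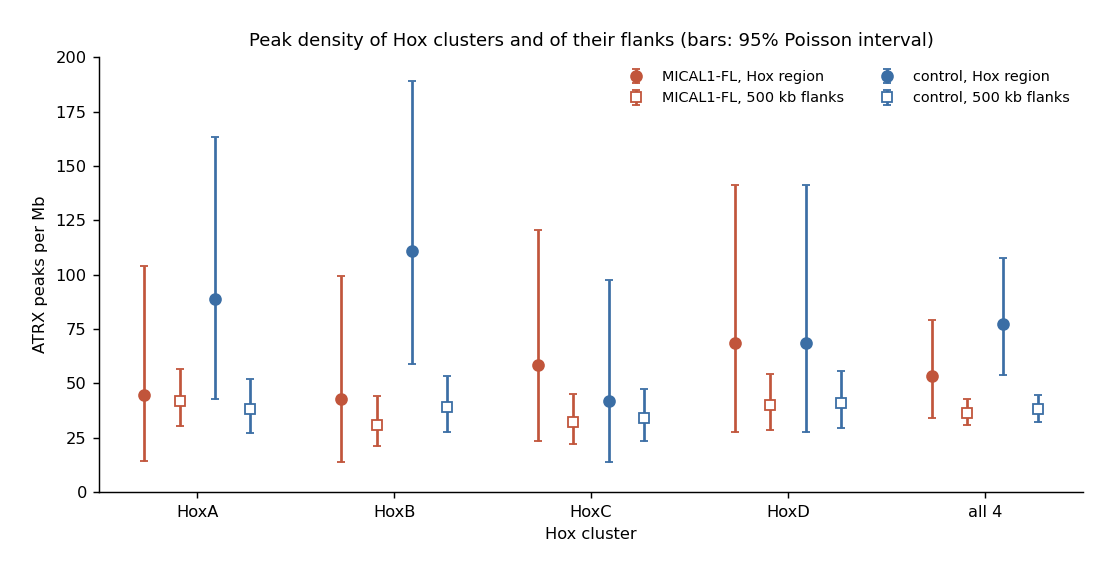
Peak density of the Hox regions (filled circles) and of the 500 kb flanks on both sides (open squares), in peaks per Mb, for each cluster and for all 4 together. Bars are 95% Poisson intervals of the counts. The highest density was that of HoxB in the control list, 110.6 peaks per Mb, while the flank densities lay between 31 and 42 peaks per Mb in both lists.

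By point value, peaks were densest inside the clusters. Counted by summit, the MICAL1-FL list had 53.1 summits per Mb inside the regions and 28.8 in the first 100 kb beyond them. The control list had 73.0 inside and 31.2 in the first 100 kb. Further out, in steps of 100 kb, densities lay between 33.8 and 42.5 in the MICAL1-FL list and between 33.8 and 45 in the control list. The nearest 100 kb was thus the sparsest step of both lists. Its intervals, 18.2 to 43.1 in the MICAL1-FL list and 20.2 to 46.1 in the control list, overlap those of the other steps. Inside the regions the MICAL1-FL interval, 34.0 to 79.0, overlaps that of every step outward. The control interval inside, 50.3 to 102.6, overlaps those of the steps from 200 kb outward.

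**Figure D3:**
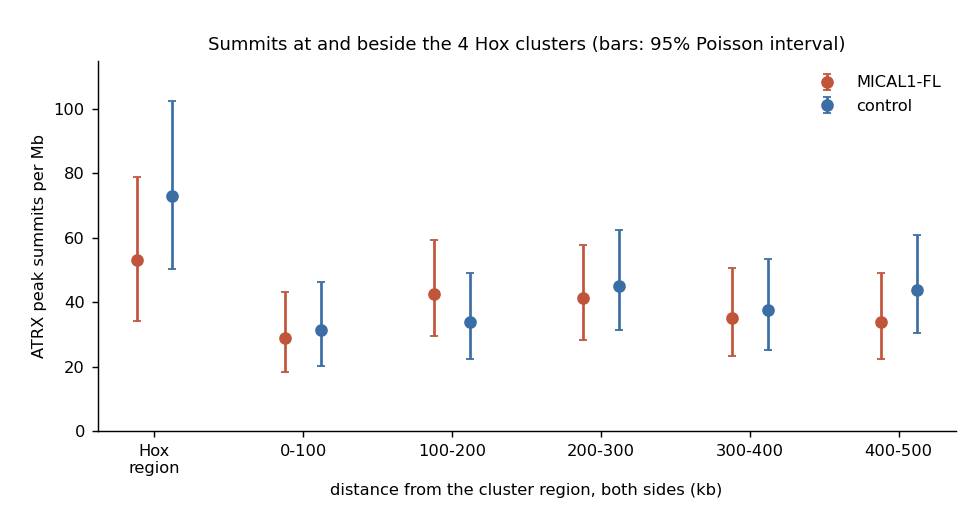
Peak summits per Mb inside the Hox regions and in 100 kb steps outward, summed over both sides of all 4 clusters, for MICAL1-FL and control. Bars are 95% Poisson intervals. The points inside the regions, 53.1 for MICAL1-FL and 73.0 for control, are the highest of each list.

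The HoxA cluster on chromosome 6 has 11 genes and had 5 MICAL1-FL peaks and 10 control peaks, a ratio of 0.500 (0.134 to 1.61). Peak density was 44.5 per Mb in the MICAL1-FL list, 1.06 times that of its flanks (0.327 to 2.67), and 88.9 in the control list, 2.34 times that of its flanks (1.04 to 4.79). With summits in place of overlap the control ratio was 2.05 (0.874 to 4.31), because the summit of 1 control peak, that on Hottip, lies outside the region. It was 2.59 (0.944 to 6.20) at a p-value of 0.01 or less and 2.22 (0.929 to 4.98) with flanks of 250 kb, so under these 3 alternatives its interval includes 1. Hoxa3, which patterns the pharyngeal arches and is needed for the thymus, held most of these peaks, with 4 in the MICAL1-FL list and 6 in the control list. Its annotated span of 44.0 kb runs over Hoxa4, Hoxa5 and Hoxa6, and so takes in peaks that stand at those genes.

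The only Hox peaks that overlapped between the lists stood on Hoxa3. The MICAL1-FL peak at chr6:52175787-52176155 was 5 fragments deep with a fold of 2.29, and the control peak at chr6:52175637-52175892 was 7 deep with a fold of 3.05, folds being those of the authors' peak caller. They shared 106 bases. Close by, a MICAL1-FL peak at chr6:52172561-52173096, 5 deep, and a control peak at chr6:52172065-52172398, 6 deep, lay 163 bases apart. A further control peak at chr6:52177300-52177675 was 8 deep, with a fold of 3.43, the third highest among control Hox peaks and tied with peaks at Hottip and Hoxb4. Hoxa3 was thus the place where the lists came closest.

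Near the start of Hoxa6 a MICAL1-FL peak at chr6:52208685-52209098 and a control peak at chr6:52209185-52209531 were 87 bases apart, 5 and 6 fragments deep. Hoxa9, a regulator of blood stem cells, had a MICAL1-FL peak of depth 6 at a distance of 825 bases and no control peak within 5 kb. Hoxa4 had a MICAL1-FL peak within 5 kb and a control peak of depth 4 on its span. Hoxa5, Hoxa7, Hoxa11, a gene of the forearm and kidney, and Hoxa13, a gene of the digits, had peaks only in the 5 kb beside them. Hoxa2 and Hoxa10 had none in either list.

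The HoxB cluster on chromosome 11 had 5 MICAL1-FL peaks and 13 control peaks over its 10 genes, a ratio of 0.385 (0.107 to 1.15). Peak density was 42.6 per Mb in the MICAL1-FL list, 1.37 times that of its flanks (0.417 to 3.56), and 110.6 in the control list, 2.84 times that of its flanks (1.39 to 5.43). The 66.4 kb of gaps between its regions, nearly all between Hoxb13 and the rest, held 3 further MICAL1-FL peaks and 1 further control peak. With these gaps counted in, the ratio of MICAL1-FL to control was 0.571 (0.208 to 1.46) and the control density 1.95 times that of the flanks (0.979 to 3.67), an interval that includes 1.

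No HoxB gene had a MICAL1-FL peak within 1 kb of either end, while 6 of the 10 had a control peak there. With 10 genes the exact intervals are wide, 0 to 30.8% in MICAL1-FL and 26.2 to 87.8% in control. They include the shares of all protein-coding genes with such a peak, 27.9% in the MICAL1-FL list and 29.3% in the control list. The control genes were Hoxb1, Hoxb2, Hoxb4, Hoxb7, Hoxb8 and Hoxb13. On Hoxb8, which acts in spinal circuits and in a microglial lineage, and within 1 kb of Hoxb7 stood the deepest HoxB peak, at chr11:96284406-96284698 in the control list, 9 fragments deep with a fold of 3.81 and a q-value of 0.182. Hoxb4, a gene of blood stem cells, carried control peaks of depth 8 at chr11:96318843-96319329 and of depth 5, both also inside the span of Hoxb3. Hoxb2, a hindbrain gene, had control peaks of depth 7 and 4 at its ends, the first of them 812 bases wide. Hoxb1, known for the identity of facial motor neurons, had a control peak of depth 7 at a distance of 136 bases, and Hoxb13, a prostate gene, had one of depth 5 on its span.

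Hoxb3 had 2 MICAL1-FL peaks on its 40.8 kb span, both 5 deep, and 5 control peaks on it, from 4 to 8 deep. Hoxb9 was the HoxB gene with more peaks in the MICAL1-FL list, 2 on its span of depth 5 and 6, against none on the span and 1 within 5 kb in the control list. Hoxb6 had 1 on its span in each list, of depth 5 in MICAL1-FL and 8 in control, 2305 bases apart. Hoxb7 had a control peak of depth 6 on its span beside the one it shares with Hoxb8. Hoxb5 had none in either list.

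**Figure D4:**
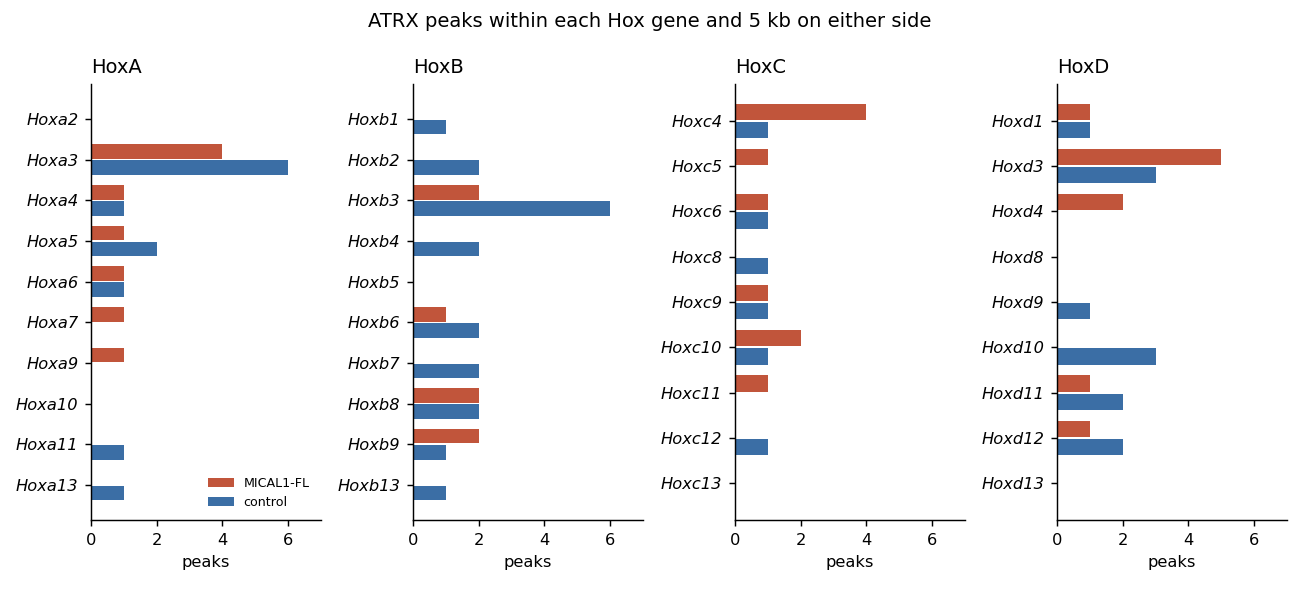
Number of ATRX peaks in each Hox gene span drawn, with 5 kb on either side, MICAL1-FL above control for each gene, by cluster. A peak near several genes is drawn at each of them, so the bars add up to more than 24 and 35. Hoxd3 has the most MICAL1-FL peaks, 5, and Hoxa3 and Hoxb3 have the most control peaks, 6 each.

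The HoxC cluster on chromosome 15 had 7 MICAL1-FL peaks and 5 control peaks over 9 genes, a ratio of 1.4 (0.382 to 5.59). Peak density was 58.5 per Mb in the MICAL1-FL list, 1.83 times that of its flanks (0.681 to 4.21), and 41.8 in the control list, 1.23 times that of its flanks (0.375 to 3.16). Hoxc4 had 3 MICAL1-FL peaks on its 18.8 kb span, of depth 4, 6 and 5, and 1 control peak of depth 5. A MICAL1-FL peak of depth 5 lay within 1 kb of both Hoxc5 and Hoxc6, and no control peak did. Hoxc10, which acts in lumbar motor neurons, had 2 MICAL1-FL peaks of depth 6 in the 5 kb beside it and a control peak of depth 7 on its span. Hoxc9, which acts in thoracic motor neurons, had a MICAL1-FL peak within 5 kb and a control peak of depth 7 on its span. Hoxc8, a gene of brachial motor neurons, Hoxc11 and Hoxc12 had peaks only in the 5 kb beside them, and Hoxc13, a hair follicle gene, had none. The closest peaks of the lists in HoxC were 3083 bases apart, on Hoxc4.

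The HoxD cluster on chromosome 2 had 7 peaks in each list over 9 genes, a ratio of 1 (0.299 to 3.34). Its density of 68.5 peaks per Mb was 1.71 times that of its flanks in the MICAL1-FL list (0.647 to 3.86) and 1.67 times in the control list (0.632 to 3.76). The numbers were equal, and as in HoxB and HoxC no peak overlapped between the lists. Of all peaks, 7.3% in the MICAL1-FL list and 6.89% in the control list overlapped one of the other list. Hoxd3, which shapes the first neck vertebrae, had 4 MICAL1-FL peaks and 2 control peaks on its 36.3 kb span, which runs over Hoxd4. The highest fold of any MICAL1-FL Hox peak was there, 3.77 at chr2:74720104-74720403, with a depth of 10 and a q-value of 0.105. Hoxd4 had 1 MICAL1-FL peak of depth 4 on its span and no control peak within 5 kb.

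At the other end of HoxD stood the strongest Hox peak of the control list. Hoxd11, a gene of the forearm, had 2 control peaks on its span. The larger, at chr2:74682060-74683314, had the highest fold of all control Hox peaks, 3.9, with a depth of 10, a width of 1255 bases and a q-value of 0.0862, and it covers the second Hoxd11 start printed above. It also lay within 1 kb of Hoxd10, a gene of lumbar motor neurons. Between Hoxd11 and Hoxd12 stood a MICAL1-FL peak of depth 5, and 867 bases from it the smaller control peak, at chr2:74679496-74680083, 8 deep. Hoxd9 had no MICAL1-FL peak within 5 kb and a control peak of depth 5 and 921 bases. Hoxd1, which acts in mouse pain-sensing neurons, had a MICAL1-FL peak of depth 6 at 4249 bases and a control peak of depth 5 on its span, 11 bases from its start window. Hoxd8 and Hoxd13, a gene of the digits, had none in either list.

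Counted by gene, 21 of the 39 Hox genes had a MICAL1-FL peak within 5 kb and 28 had a control peak, beside 61.2% and 64% of all protein-coding genes. Both lists had one at 16 genes, MICAL1-FL alone at 5, control alone at 12 and neither at 6, which is 41.0%, 12.8%, 30.8% and 15.4% of them. Of all protein-coding genes, 48.2% had one in both lists, 13% in MICAL1-FL alone, 15.8% in control alone and 22.9% in neither. Among protein-coding genes no longer than Hoxa3, the longest Hox gene, the shares were 50.9% in the MICAL1-FL list and 54.5% in the control list. The Hox share was 53.8% in MICAL1-FL (37.2 to 69.9), an interval that includes 50.9%, and 71.8% in control (55.1 to 85.0), an interval that starts just above 54.5%. Neighbouring genes share peaks, so genes are not independent and these intervals are too narrow.

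On the gene itself the gene counts of the lists stood further apart, but a peak on overlapping spans counts at each gene. Counted once, 16 MICAL1-FL and 27 control peaks overlapped a Hox span. Their ratio was 0.593 (0.298 to 1.14), an interval that includes 1, so the lists are not shown to differ in this. A peak overlapped the span of 7 Hox genes in the MICAL1-FL list and of 17 in the control list, beside 49.7% and 51.9% of all protein-coding genes, or 36.4% and 38.9% of those no longer than Hoxa3. The Hox shares were 17.9% in MICAL1-FL (7.54 to 33.5) and 43.6% in control (27.8 to 60.4). Most Hox genes are far shorter than Hoxa3, so that set, here and above, is not matched to them in length. The MICAL1-FL share therefore does not show fewer peaks per base. Per Mb, that list had 53.1 peaks in Hox regions (34.0 to 79.0), beside 44.4 around all autosomal protein-coding genes. Within 1 kb of either end, 6 Hox genes had a MICAL1-FL peak and 15 a control peak, beside 27.9% and 29.3% of all genes, or 23.9% and 25.3% of those no longer than Hoxa3. These Hox shares were 15.4% in MICAL1-FL (5.86 to 30.5) and 38.5% in control (23.4 to 55.4). By peak in place of gene, 4 of 24 MICAL1-FL peaks (16.7%, 4.74 to 37.4) and 16 of 35 control peaks (45.7%, 28.8 to 63.4) lay within 1 kb of a Hox gene end. Of all peaks within 5 kb of a protein-coding gene, 12.9% of MICAL1-FL peaks and 12.8% of control peaks lay as near to a gene end. Hox genes stand close together, and 33.0% of the bases of their regions are within 1 kb of a gene end, against 6.70% around all protein-coding genes. Both Hox intervals include that 33.0%.

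The 2 lists shared few Hox peaks, as they shared few peaks in general. Each Hox interval below includes the share of its whole list. The overlapping pair on Hoxa3 was 4.17% of the MICAL1-FL Hox peaks (0.105 to 21.1) and 2.86% of the control Hox peaks (0.0723 to 14.9), beside 7.3% of all MICAL1-FL peaks and 6.89% of all control peaks. Allowing a gap of up to 1 kb, 4 peaks of each list had a partner, or 16.7% in MICAL1-FL (4.74 to 37.4) and 11.4% in control (3.20 to 26.7), beside 18.7% of all MICAL1-FL peaks and 17.7% of all control peaks. They stood at Hoxa3, Hoxa6 and between Hoxd11 and Hoxd12. For the median Hox peak the nearest peak of the other list lay 4282 bases away in the MICAL1-FL list and 5560 bases away in the control list.

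At 7 fragments or more, the share of Hox peaks differed from that of the whole list by less than counting error in MICAL1-FL, and exceeded it in control. The median depth was 5 fragments for the 24 MICAL1-FL Hox peaks and 6 for the 35 control Hox peaks. At least 7 fragments were reached by 2 MICAL1-FL Hox peaks (8.33%, 1.03 to 27) and by 14 control Hox peaks (40.0%, 23.9 to 57.9), beside 14.2% of all MICAL1-FL peaks and 16.7% of all control peaks. In the flanks the share was 13.8% in both lists. At least 6 fragments were reached by 8 MICAL1-FL and 20 control Hox peaks, or 33.3% (15.6 to 55.3) and 57.1% (39.4 to 73.7), beside 39.3% and 43% of all peaks. At least 5 were reached by 22 and 29, or 91.7% (73.0 to 99) and 82.9% (66.4 to 93.4), beside 79.2% and 81.6%. At these lower steps the Hox intervals of both lists include the share of the whole list. At least 8 were reached by 2 and 7, or 8.33% (1.03 to 27) and 20% (8.44 to 36.9), beside 4.54% and 5.71% of all peaks.

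These depth steps were chosen after the values were seen. The ratio of MICAL1-FL to control Hox peaks was 0.759 (0.415 to 1.37) at 5 fragments or more, 0.400 (0.152 to 0.948) at 6 or more and 0.143 (0.0158 to 0.622) at 7 or more. In the flanks it was 1, 1.13 and 0.952 at these steps, and over all autosomal peaks it was 0.919, 0.863 and 0.804. At 8 or more the Hox ratio was 0.286 (0.0290 to 1.5), with the same counts, 2 and 7, in the flanks. By cluster, the control peaks of 7 fragments or more were 3 in HoxA, 6 in HoxB, 3 in HoxC and 2 in HoxD, and both MICAL1-FL peaks were in HoxD. With 1 library a condition, a difference between conditions cannot be told apart from a difference between these libraries.

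**Figure D5:**
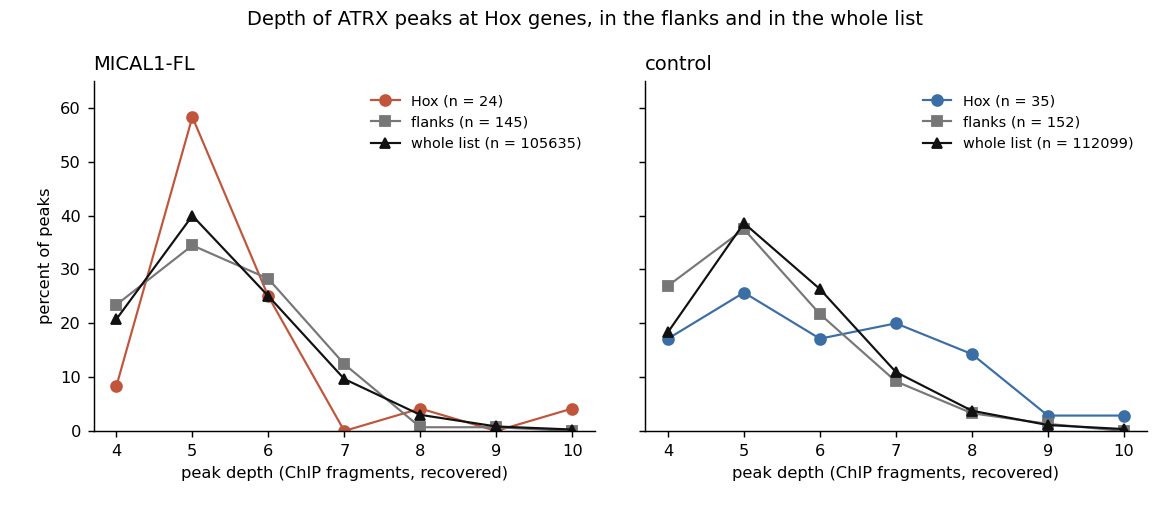
Share of peaks at each depth from 4 to 10 ChIP fragments, in percent, for MICAL1-FL on the left and control on the right, with deeper peaks of the whole lists outside the axis. Coloured circles are Hox peaks, grey squares flank peaks and black triangles the whole list. In the MICAL1-FL list 58.3% of Hox peaks are 5 deep, and in the control list the Hox line lies above the others from 7 to 10 fragments. The control points at 9 and 10 are 1 Hox peak each. The MICAL1-FL Hox line also lies above the others at 8 and at 10 fragments, with 1 peak each.

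The background behind a peak was alike in both sets. It lay above the lowest value of its list for 8 of 24 MICAL1-FL Hox peaks (33.3%) and for 13 of 35 control Hox peaks (37.1%), beside 31.5% and 37.0% of all peaks. Peaks of 800 bases or more were absent among the 24 MICAL1-FL Hox peaks, a count of 0 that allows up to 12.5% at 3 counts of 24, or 14.2% by the exact interval, and numbered 4 among the 35 control Hox peaks (11.4%, 3.20 to 26.7), beside 2.17% of all MICAL1-FL peaks and 2.47% of all control peaks. Of these 4, 3 stood in HoxD, on Hoxd11, Hoxd9 and Hoxd3, and 1 beside Hoxb2.

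By paralogue number, peaks were densest on the low-numbered genes in both lists. On the spans of the 8 genes numbered 1 to 3 there were 10 MICAL1-FL peaks, or 73.9 per Mb (35.5 to 136.0), and 17 control peaks, or 125.7 per Mb (73.2 to 201.3). The 15 genes numbered 4 to 8 had 5 MICAL1-FL peaks, or 57.5 per Mb (18.7 to 134.2), and 7 control peaks, or 80.5 per Mb (32.4 to 165.9). The 16 genes numbered 9 to 13 had 2 MICAL1-FL peaks, or 26.5 per Mb (3.21 to 95.7), and 6 control peaks, or 79.5 per Mb (29.2 to 173.1). The intervals of the 3 groups overlap within each list. The long spans of Hoxa3, Hoxb3 and Hoxd3 make up most of the first group. They run over genes of the second group, and peaks and bases in such an overlap count in both groups. Counted once, 16 MICAL1-FL and 27 control peaks overlapped a Hox span.

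The clusters also carry microRNAs and long noncoding RNAs. The microRNAs fall into families by their seed, bases 2 to 8, which pairs with target messages. The mature forms below, from the RefSeq table of build GRCm38.p6, are shown because the 3 Hox-cluster microRNAs nearest to a peak belong to these families, with the seed in capitals.
miR-10a-5p: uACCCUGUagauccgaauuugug
miR-10b-5p: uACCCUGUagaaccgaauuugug
miR-196a-5p: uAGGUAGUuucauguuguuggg
miR-196b-5p: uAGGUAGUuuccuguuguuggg

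The miR-10 pair shares the seed ACCCUGU and the miR-196 group shares AGGUAGU, and both are known to target Hox messages. Mir10b, inside the span of Hoxd3, lay 224 bases from a MICAL1-FL peak at chr2:74725601-74725846, 4 fragments deep, and 11998 bases from the nearest control peak. Mir196a-2, between Hoxc10 and Hoxc9, lay 257 bases from a MICAL1-FL peak at chr15:102973691-102974149, 6 deep with a fold of 2.68, and 4664 bases from the nearest control peak. Mir10a, beside Hoxb4, lay 11256 bases from the nearest MICAL1-FL peak and 1569 bases from the control peak of depth 8 at Hoxb4. Mir615, inside the span of Hoxc5, lay 1789 bases from a MICAL1-FL peak and 16386 bases from the nearest control peak. Neither list had a peak on a Hox-cluster microRNA itself.

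Of the Hox peaks, 9 MICAL1-FL peaks (37.5%, 18.8 to 59.4) and 12 control peaks (34.3%, 19.1 to 52.2) overlapped a gene that is not protein-coding. Such genes overlapped 7.28% of all MICAL1-FL peaks within 5 kb of a protein-coding gene and 7.03% of the control ones. They cover 28.9% of the bases of the Hox regions, against 5.51% around all protein-coding genes, and both Hox intervals include 28.9%. Haglr, a long noncoding RNA between Hoxd3 and Hoxd1, had 2 in each list. The stronger MICAL1-FL peak there, at chr2:74749970-74750373, was 8 deep with a fold of 3.02, the next highest after the Hoxd3 peak. The third place of the MICAL1-FL list, a fold of 2.68 at a depth of 6, was tied between peaks at Hoxa9, Hoxb9, Hoxc4, Hoxc10 and Hoxd1. Hottip, whose human counterpart is known to hold the WDR5 complex at HOXA, had no MICAL1-FL peak on it and a control peak of depth 8 at chr6:52265836-52266235. Hotair, whose human counterpart is known to bind Polycomb proteins, had a MICAL1-FL peak of depth 4 in the gap between Hoxc12 and Hoxc11, outside the 59 peaks, and no control peak. Hoxaas3, Hoxb3os and Hoxb5os had 1 in each list. Gm30528 had 1 MICAL1-FL peak and 2 control peaks, and LOC115490409 had 2 and 3. Hoxd3os1 was among those with a peak in the control list alone, and Gm15050 among those with a peak in the MICAL1-FL list alone.

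Of the flank peaks, 39 of 145 in the MICAL1-FL list and 47 of 152 in the control list overlapped the span of a protein-coding gene. The genes with the most of them on each side follow. Skap1 beside HoxB, an adaptor of T cells with a span of 295.1 kb, had 7 MICAL1-FL and 11 control peaks on it, and its relative Skap2 beside HoxA had 5 and 7. On the other side of HoxA, Tax1bp1, an autophagy receptor, had the most MICAL1-FL peaks, 2 against 1 in control, and Tax1bp1 and Hibadh, an enzyme of valine breakdown, tied in the control list with 1 each. Abi3, an adaptor of the actin cytoskeleton, had the most MICAL1-FL peaks on the other side of HoxB, 2 against none in control, where 6 genes tied in the control list with 1 each. Beside HoxC, the transcription factor gene Atf7 had 4 MICAL1-FL and 2 control peaks and tied in control with the RNA-binding protein gene Pcbp2, which had 1 and 2. On its other side Ppp1r1a, a phosphatase inhibitor, had 3 and 2, and tied in control with the coatomer gene Copz1 and the phosphodiesterase gene Pde1b. Beside HoxD, the homeobox gene Evx2 had 2 MICAL1-FL peaks and 1 control peak, tied in control with Lnpk, and Mtx2, a mitochondrial import gene, on the other side had 1 in each.

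Proteins that work with or on Hox genes were looked at in 4 lists of genes, by peaks in the span with 5 kb on either side. Among the Hox co-factors, the Pbx, Meis and Pknox proteins that bind DNA beside Hox proteins, all 9 genes had a peak in both lists, with 94 MICAL1-FL and 92 control peaks, a ratio of 1.02 (0.758 to 1.38). Pknox2 had 22 MICAL1-FL and 25 control peaks on its span, Meis2 16 and 16, Pbx3 5 and 6, and Meis1 6 and 5. Of the 28 Polycomb genes 24 had a MICAL1-FL peak and 24 a control peak, with 70 and 72 peaks, a ratio of 0.972 (0.690 to 1.37). Jarid2, a partner of the H3K27 methyltransferase, had 12 MICAL1-FL and 7 control peaks on its span, Aebp2 5 and 7, Phc2 6 and 4, Kdm2b 4 and 5, and Pcgf5 4 and 5.

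Among the 9 Trithorax and H3K27 demethylase genes, 3 had a MICAL1-FL peak and 8 a control peak, with 6 and 19 peaks, a ratio of 0.316 (0.103 to 0.822). The X-linked Kdm6a, which was singled out after its values were seen, had none in the MICAL1-FL list and 4 in the control list, and without it the ratio was 0.400 (0.127 to 1.09), an interval that includes 1. Kmt2a, the methyltransferase that keeps Hox genes on, and Dpy30, a subunit of its complex, had 1 peak on the span in each list. Of the 15 other homeobox genes of the Antennapedia class, 11 had a MICAL1-FL peak and 13 a control peak, with 23 and 28 peaks, a ratio of 0.821 (0.452 to 1.48). The brain patterning gene En1 had 2 MICAL1-FL and 3 control peaks on its span, En2 3 and 1, Meox2 3 and 2, Evx2 2 and 1, and Meox1 1 and 2. The share of all protein-coding genes with such a peak is given above, 61.2% in MICAL1-FL and 64% in control.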

How the data were processed

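ATRX ChIP-seq peak lists of 1 MICAL1-FL and 1 control library were used, and the input sample was not analysed here. The submitters' processing notes list, with no settings, MACS 1.4.2 and ChIPseeker 1.26.2 as well as Bowtie 1.3.0 and SAMtools 1.9. Per the file layout, each deposited peak has a score, a fold over background (a ratio), a -log10 p-value, a -log10 q-value and a summit offset from the authors' peak caller. The deposited score equals 10 times -log10 p with decimals dropped. The largest p-value was 0.0496 in the MICAL1-FL list and 0.0498 in the control list.

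Depth was recovered from fold, taken as (fragments + 1) over (background + 1), and the Poisson p-value, for 99.96% of MICAL1-FL and 99.95% of control peaks, a reading no label states. A layout with q-values and summits is usual for later MACS versions than the one listed, so the caller is not settled and these depths rest on an assumed formula. Positions were compared with the RefSeq gene table of GRCm38.p6, which has no strand or exons, so exons, introns and UTRs were not told apart. Shares have Clopper-Pearson intervals, densities Poisson intervals and ratios exact conditional binomial intervals, with Python 3.11.15 and SciPy 1.17.1. Overlap means at least 1 bp. The steps were tested on simulated data.

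Hox genes are named where a peak overlaps the span or lies within 1 kb of an end. Also named are the 3 highest folds of each list, the overlapping pairs, the flank gene with most peaks on each side, and up to 5 members per gene list with a span peak in both lists. Noncoding genes were added later. A Hox gene and a co-factor that these rules select are not reported or drawn here, though counts over lists and clusters include them. The members, lists and tests were chosen with earlier results of these data known. The lower count of Hox gene ends with a MICAL1-FL peak was among those results and is not independent support.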

Additional observations from a re-analysis of the deposited data

How the results depend on the processing

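The ratio of MICAL1-FL to control Hox peaks was 0.143 (0.0158 to 0.622) at 7 fragments or more, 0.286 (0.0290 to 1.5) at 8 or more and 0.400 (0.152 to 0.948) at 6 or more, alternatives chosen after seeing the data, and at most 0.769 (0.461 to 1.27), with spans widened to 10 kb. It stayed below 1 under every alternative that gave a value, and at a q-value below 0.05 no peak was left. The control density over its flanks was 3.32 among peaks above the list's median -log10 p and 3.28 at 6 fragments or more, against 2.04 as reported, and for HoxB alone 5.96 above that median. In MICAL1-FL the interval of that density ratio excluded 1 at a p-value of 0.01 or less (1.89, 1.09 to 3.13) and with spans widened to 10 kb (1.63, 1.06 to 2.44). The count of Hox genes with a MICAL1-FL peak, 21 as reported, was 10 above the median, 0 at a q-value below 0.05, 7 on the span alone, 32 with 10 kb, 10 at 6 fragments or more and 6 at gene ends. With a control peak, 28 as reported, it was 17 above the median, 0 at a q-value below 0.05, 17 on the span alone and 15 at gene ends. Counted at gene ends, co-factors numbered 3 in MICAL1-FL and 5 in control, Polycomb genes 11 and 11, other Antennapedia-class genes 6 and 8, and Trithorax genes 3 in control. Each of the other 155 alternative values lay inside the interval of the reported value or, for counts, within 1.5 times of it. Among them, the MICAL1-FL density over its flanks, whose interval includes 1 throughout in HoxA and HoxB, lay on the other side of 1 in HoxA above the median (0.635), at 6 fragments or more (0.523), with spans widened to 10 kb (0.948) and with flanks of 1 Mb (0.831). In HoxB it did so above the median (0.946) and at 6 fragments or more (0.709). No paired analysis was possible because each condition has 1 library. With 24 and 35 peaks, of median depth 5 and 6 fragments, a difference of single peaks is not detectable at this depth.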
